A study of Rattus norvegicus with 5 samples.

Results

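The genes described here run DNA replication and the cell division cycle, and their expression was followed in the small intestine of rats on mild to moderate calorie restriction (CR). They were taken by symbol alone: every gene probe (probe set) of the array annotated with 1 symbol starting with *Mcm*, *Rfc*, *Ccna*, *Ccnb*, *Ccnd* or *Ccne*, with *Cdc6*, *Cdc20*, *Cdc25* or *Cdc45*, or equal to 1 of a named set that includes *Pcna*, *Top2a*, *Mki67*, *Cdk1* and the inhibitors *Cdkn1a*, *Cdkn1b* and *Cdkn2b*. This gave 53 gene probes for 38 genes, out of 15866 gene probes without the array controls and 10411 singly named genes. The names had been chosen with earlier results of these data known. Of the names the rule allows, *Ccna1*, *Ccna2*, *Cdc6*, *Cdc45*, *Cdk2*, *Rfc5* and *Rrm2* had no gene probe with that symbol alone and are not analysed here. *Ccndbp1* and *Mcm3ap* came in through their first letters only; the former encodes a cyclin D-binding protein and the latter an MCM3-associated protein.

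Male Wistar rats, bought at 5 weeks and 6 weeks old when the diets began, were housed singly and received their full recorded intake of a purified powdered diet (control) or 5, 10, 20 or 30% less for 1 month, in groups of 5. All groups, the control included, were fasted for 16 h before dissection. Pooled complementary RNA of the 5 rats of a group was hybridized to 1 Affymetrix rat array. There are thus 5 arrays, no replicate at any level, and no view of differences between single rats. The tissue was small intestine, not sorted cells, and markers of epithelium, muscle and immune cells were all measured. The signals had been scaled to a common trimmed mean of 132, and the array medians were 44.9 to 49. For actin, the control probes at the 3′ end were 2.20 to 2.41 times as bright as those at the 5′ end on 4 arrays and 3.18 times at 20% CR, a larger ratio pointing to less intact RNA. Between any pair of arrays, log2 signals correlated at 0.931 to 0.952.

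In the gut epithelium, division is confined to the crypts, where stem cells and transit-amplifying progenitors renew it, while the villus cells no longer divide. D- and E-type cyclins with their kinases carry a cell into S phase, the MCM ring is loaded on origins and unwinds the DNA, replication factor C (RFC) complexes place the PCNA clamp, and ribonucleotide reductase, thymidylate synthase and thymidine kinase supply nucleotides. Cyclin B with CDK1 and the kinases PLK1 and Aurora B then drive mitosis, and inhibitors of the CDKN1 and CDKN2 families hold the kinases back. Transcription of the S phase genes is classically controlled through E2F sites and that of many mitotic genes through CCAAT boxes.

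To show these elements in the rat genes, RefSeq promoter windows of the GRCr8 build (250 bases before to 50 after an annotated start) were searched on both strands; 31 of the 38 genes had a window. The E2F letters searched were TTTCCCGC, TTTGGCGC, TTTCGCGC and TTTGCCGC, with overlapping matches on opposite strands counted separately. They were found in 9 of the 31 windows (29.0%) and in 2.14% of all 33469 windows of that length. All 5 *Mcm* genes with a window held a match (*Mcm2*, *Mcm3*, *Mcm5*, *Mcm6*, *Mcm7*), against 1 of 10 genes of mitosis (*Cdk1*). At least 2 CCAAT matches were present in 11 of the 31 windows (35.5%) and in 11.2% of all windows, and TTTGAA, the core of the cell cycle homology region, in 10 (32.3%) and in 18.3%. That core was in 8 of the 10 windows of genes of mitosis. A match is a string of letters, not a measured binding site. At least 1 CCAAT match was in 9 of those 10 windows and also in 4 of the 5 *Mcm* windows, against 37.5% of all windows. The stretches below were chosen to show E2F matches in *Mcm* genes and paired CCAAT matches in the B cyclins. Capitals mark the E2F letters alone in the *Mcm* lines and CCAAT alone in the cyclin lines, on either strand; the *Mcm6* stretch also holds a CCAAT match on the other strand near its end, left in lower case. All lie upstream of the annotated start and outside any RefSeq gene.
Mcm5, chr19:13488599-13488658, plus strand: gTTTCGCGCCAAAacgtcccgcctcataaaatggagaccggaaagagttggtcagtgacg
Mcm6, chr13:42404433-42404492, minus strand: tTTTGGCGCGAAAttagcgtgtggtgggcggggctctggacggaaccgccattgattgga
Mcm7, chr12:22163357-22163416, minus strand: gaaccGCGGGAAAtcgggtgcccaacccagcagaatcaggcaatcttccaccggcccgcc
Ccnb1, chr2:33655251-33655310, minus strand: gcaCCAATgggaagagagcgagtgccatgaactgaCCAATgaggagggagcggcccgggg
Ccnb2, chr8:79981735-79981794, minus strand: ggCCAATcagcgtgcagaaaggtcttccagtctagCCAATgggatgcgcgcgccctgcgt

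Signals were compared as log2 ratios of a CR array to the control array, and the 4 values given for a gene probe are always in the order 5, 10, 20 and 30% CR. All 4 ratios share the single control array. Of the 53 gene probes, 41 for 33 genes passed a filter on the mean log2 signal over all 5 arrays (at least 5.54, a signal of 46.5), as did 7933 gene probes in all. *Bub1b*, *Ccne1*, *Ccne2*, *Cdc25b* and *Tyms* had no gene probe past it. Among those kept, *Dscc1* and *Mcm4* had a control signal below the filter value, so they passed through their signals under CR, and *Cdc25a* and *Mcm3ap* had CR signals below it. Kept gene probes had mean signals from 53.3 to 1229, *Pcna* being the brightest.

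The signals that stood furthest from the control pool belonged to single inhibitors and clamp loader genes, while other genes of the same roles went both ways. *Cdkn1a* and *Cdkn2b* were lower on every CR array, *Dscc1* and *Rfc2* were at or above a log2 ratio of 0.5 on every CR array, and *Mcm7* was higher on every CR array. In contrast, 1 kept gene probe of the clamp loader *Rfc1* was lower on every CR array, and the inhibitor *Cdkn1b* was higher at 5 and 30% CR. For *Mki67*, *Cdk1*, *Pcna* and *Plk1* the ratios lay between −0.13 and 0.40. None of these differences passed limma over all gene probes at an adjusted p of 0.05 (smallest adjusted p = 0.831 among the 41), so they are described as values on single pools. In bulk tissue, fewer dividing cells and less of a transcript per dividing cell cannot be told apart.

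*Cdkn1a* encodes p21, which inhibits cyclin-dependent kinases and binds PCNA. At the weaker of its gene probes the control signal was 109.5, and the CR arrays had 55.5, 68.5, 66.4 and 63.2. The control thus lay well above a narrow group of CR signals, with log2 ratios of −0.98, −0.68, −0.72 and −0.79 (mean −0.79 ± 0.23, limma standard error, adjusted p = 0.833). The brighter one had 324.3 on the control array and 244.5, 251.2, 248.5 and 261.7 under CR. Its ratios were smaller, −0.41, −0.37, −0.38 and −0.31 (mean −0.37 ± 0.15, adjusted p = 0.988). For both gene probes the lowest of the 5 signals was at 5% CR, the mildest restriction.

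*Cdkn2b*, the inhibitor p15 of the cyclin D kinases, had a control signal of 116.5 and 51.8, 53.9, 86.0 and 83.4 under CR. Its ratios were −1.17, −1.11, −0.44 and −0.48, with the lower signals at the 2 milder levels (mean −0.80 ± 0.32, limma adjusted p = 0.988). *Cdkn1b*, which encodes p27, had a different profile. Its kept gene probe gave 557.8 on the control array, 719.9, 480.3, 260.9 and 721.3 under CR, and ratios of 0.37, −0.22, −1.10 and 0.37. The control signal lay inside the CR range, and the 20% CR pool was alone far below the rest. Its second gene probe, far below the filter, had 12.8 on the control array and 15.1, 21.3, 14.8 and 6.3 under CR, and did not repeat that profile. Other genes named as inhibitors of the kinases were followed for comparison, and of 4 on the array 3 were kept. *Cdkn1c* (p57) had ratios of −0.41, −0.47, −0.31 and −0.73, *Cdkn3* −0.15, −0.18, −0.20 and −0.16, and *Cdkn2c* 0.21, 0.13, −0.10 and 0.10. The last of these went both ways.

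**Figure D1:**
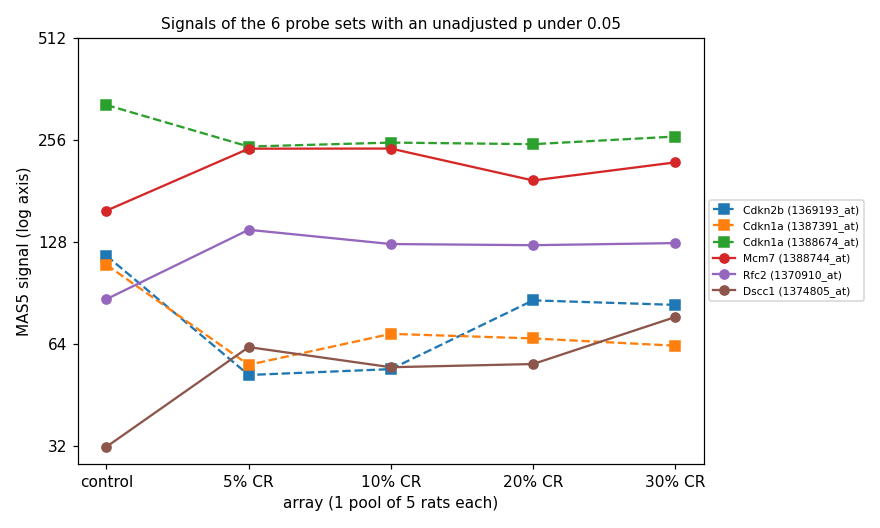
MAS5 signal (log axis) on the control array and the 4 CR arrays for the 6 replication and cell cycle gene probes with an unadjusted p under 0.05 in limma; solid lines, mean ratio above 0; dashed lines, below 0. Each point is 1 pool of 5 rats, and in each of the 6 the control lies outside the range of the CR pools, as for *Rfc2* with 86.7 against 125.1 to 138.9. *Dscc1* passed the filter only through its CR signals.

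*Dscc1* is a subunit of the alternative clamp loader that acts in sister chromatid cohesion. Its signal was 31.8 on the control array and 62.6, 54.6, 55.8 and 76.8 under CR, which gives ratios of 0.98, 0.78, 0.81 and 1.27. All CR pools lay above the control, and the signals were weak throughout. The control signal lay below the filter value, so *Dscc1* was kept only through its signals under CR. It had the highest mean ratio of the kept gene probes (0.96 ± 0.27, limma standard error, adjusted p = 0.831, or 1.95-fold), and with a constant added to all signals the mean was 0.74.

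*Rfc2*, a small subunit shared by the RFC complexes, had a signal of 86.7 on the control array against 138.9, 126.1, 125.1 and 126.9 under CR. Its ratios of 0.68, 0.54, 0.53 and 0.55 were nearly equal at all levels (mean 0.57 ± 0.18, adjusted p = 0.955). The other small subunits measured were also lowest on the control array. *Rfc4* had ratios of 0.45, 0.12, 0.25 and 0.69, and *Rfc3* 0.24, 0.60, 0.09 and 0.01. For *Rfc3* the 30% CR signal (115.9) was thus hardly above the control (115.3). *Pcna*, the sliding clamp itself, had 1109 on the control array and 1232, 1215, 1226 and 1363 under CR. Its ratios were 0.15, 0.13, 0.14 and 0.30 (mean 0.18 ± 0.13), with the control lowest but close to 3 of the CR pools. *Rfc1*, the large subunit, did not share that order: 1 kept gene probe had −0.58, −0.25, −0.56 and −0.55 with the control highest, and the other 0.20, 0.27, −0.38 and −0.18. Of the 7 kept gene probes of the clamp and its loaders, the control was lowest for 5 and highest for 1.

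The 6 subunits of the MCM helicase split into *Mcm4*, *Mcm6* and *Mcm7*, for which the control array was lowest, and *Mcm2*, *Mcm3* and *Mcm5*, for which the 20% CR array was lowest. *Mcm7* had a control signal of 158.2 and 241.0, 241.2, 194.2 and 219.6 under CR, with ratios of 0.61, 0.61, 0.30 and 0.47 (mean 0.50 ± 0.18, limma adjusted p = 0.974). *Mcm6* had 138.5 on the control array and 188.6, 177.2, 191.0 and 156.0 under CR. *Mcm4*, weak on all arrays, had 45.8 and 57.6, 66.9, 47.8 and 66.6, the control and 20% CR signals being nearly alike. In the other 3 subunits the control lay within the CR range. *Mcm2* had ratios of 0.15, 0.39, −0.22 and −0.04, *Mcm3* −0.18, 0.07, −0.70 and −0.32, and *Mcm5* −0.14, −0.03, −0.54 and 0.27. The median ratio of the 6 was 0.24, 0.37, −0.08 and 0.22. These subunits form 1 ring, and their transcripts on the same arrays differed in mean ratio from −0.28 (*Mcm3*) to 0.50 (*Mcm7*), a gap that was not tested.

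The kept genes of nucleotide supply were *Rrm1* and *Tk1*. *Rrm1*, the large subunit of ribonucleotide reductase, had a signal of 195.1 on the control array and 203.3, 215.4, 195.1 and 188.7 under CR, with no ratio above 0.14 in size. *Tk1*, thymidine kinase, had −0.23, 0.02, 0.01 and −0.18 at one gene probe and −0.16, 0.03, −0.54 and 0.01 at the other. Its pair of gene probes thus differed mainly at 20% CR. *Tyms*, thymidylate synthase, was below the filter, with 43.1 on the control array and 54.0, 35.8, 34.3 and 37.3 under CR.

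Among the genes of G1 and S phase entry, *Ccnd1*, the mitogen-induced cyclin D1, gave different answers at its 3 gene probes. The brightest had a signal of 254.6 on the control array and 311.7, 294.5, 309.6 and 308.7 under CR, and all CR pools were higher (ratios 0.29, 0.21, 0.28 and 0.28). Of the others, one had 0.54, 0.28, 0.03 and 0.34, and one −0.13, 0.11, −0.20 and −0.14. *Ccnd2* had −0.05, 0.07, −0.16 and −0.25, and *Ccnd3* −0.36, −0.07, −0.02 and −0.37. *Cdk4*, their kinase, had 461.9 on the control array and 534.3, 564.5, 385.8 and 463.6 under CR, so that the control lay within the CR range. *Cdc25a*, the phosphatase that activates CDKs for S phase, had ratios of −0.59, −0.36, −0.12 and −1.03, with signals from 88.9 on the control array to 43.6 at 30% CR. Cyclin E2 (*Ccne2*) was weak, with 27.9 on the control array and 47.1, 44.6, 48.2 and 43.7 under CR, all CR pools being higher. *Ccne1* had 46.2 against 50, 27.5, 39.4 and 50.9, with no separation.

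Next come the markers commonly used to count dividing cells and the genes of mitosis. *Mki67*, which encodes the Ki-67 antigen, had 179.7 on the control array and 212.1, 218.9, 237.7 and 221.0 under CR. All CR pools were higher, by ratios of 0.24, 0.28, 0.40 and 0.30 (mean 0.31 ± 0.16). *Cdk1*, the mitotic kinase, had 233.2 against 277.5, 238.4, 233.0 and 277.9. *Top2a*, which untangles sister chromatids, had −0.00, 0.01, −0.40 and 0.06 at the brighter gene probe, and 0.70, −0.30, −0.18 and 0.72 at the weaker. Its gene probes therefore disagreed at 5 and 30% CR.

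The B cyclins that activate CDK1 did not follow *Mki67*. *Ccnb2* had 406.6 on the control array and 318.7, 391.0, 336.1 and 287.0 under CR, ratios of −0.35, −0.06, −0.27 and −0.50 with the control highest. *Ccnb1* had −0.29, −0.15, −0.19 and −0.25 at the brighter gene probe, again with the control highest, but 0.15, 0.34, −0.18 and 0.16 at the weaker. Genes of the chromosomal passenger complex were mostly above the control. *Aurkb*, its kinase, had 54.3 on the control array and 82.1, 54.1, 79.6 and 100.8 under CR, and *Birc5* (survivin) 74.6 and 98.3, 75.1, 80.7 and 98.9. The 10% CR pool was level with the control for both. *Plk1* had ratios of −0.13, −0.07, 0.02 and −0.11. *Cdc20*, the activator of the anaphase-promoting complex, had 0.18, 0.34, −0.03 and 0.13 at one gene probe and 0.34, 0.21, 0.42 and 0.00 at the other, and its other 3 gene probes were too weak to pass the filter. *Bub1b*, a spindle checkpoint kinase, was below the filter too, with 43.8 against 39.1, 46.9, 34.5 and 34.7, and *Cdc25b* had 37.2 against 32.1, 47.2, 34.4 and 38.0. Of the 12 kept gene probes of mitosis, 8 had a mean ratio above 0 and 4 below, from −0.30 (*Ccnb2*) to 0.51 (*Aurkb*).

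Of the genes taken by their first letters only, *Ccndbp1* had ratios of −0.02, 0.10, 0.03 and −0.32, and the kept gene probe of *Mcm3ap* −0.53, −0.12, −0.01 and −0.72. The 12 gene probes below the filter comprise the single ones of the 5 genes named above, 3 of *Cdc20* and 1 each of *Rfc1*, *Cdc25a*, *Cdkn1b* and *Mcm3ap*. Such signals can swing widely: a *Cdc20* gene probe had 1.5 on the control array and 10.1 to 16.2 under CR, while another had 14.4 and 1.8 to 13.7.

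**Figure D2:**
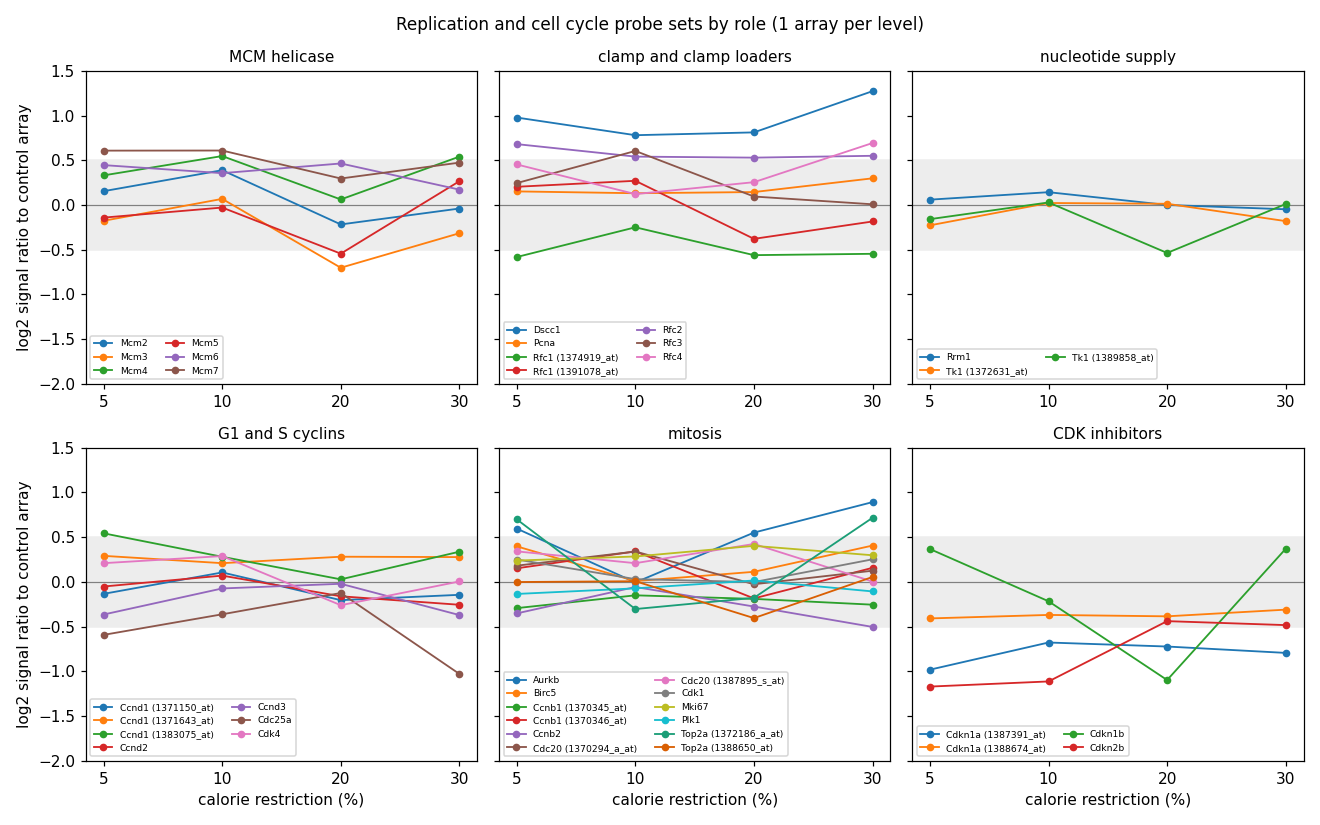
Log2 signal ratio to the control array (y axis) at 5, 10, 20 and 30% CR (x axis, levels evenly spaced) for the kept gene probes by role; *Ccndbp1* and *Mcm3ap* are not drawn. Each point is 1 array; the grey band spans ratios under 0.5 in size. *Dscc1* and *Rfc2* lie above the band at every level, 1 *Cdkn1a* gene probe lies below it, and *Cdkn1b* drops to −1.10 at 20% CR alone.

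Level by level, the number of gene probes beyond a log2 ratio of 0.5 was small. At 5% CR 6 of the 41 were higher, against 5.62% of all 7933 gene probes, and 5 were lower, against 3.84%. At 10% CR 5 were higher (4.73% of all) and 2 lower (3.45% of all). At 20% CR 3 were higher (3.95% of all) and 6 lower (6.15% of all), but after quantile normalization or median centring of the arrays 4 were higher and 3 lower, and the median ratio at 20% CR was 0.03 or 0.04 in place of −0.02. At 30% CR 6 were higher (7.51% of all) and 5 lower (5.61% of all). Shares of the 41 ran from 4.88% to 14.6%. With this filter they were above the share of all gene probes at each level and in each direction, but the counts are of 2 to 6 gene probes. Several of these have weak signals, and some genes, such as *Cdkn1a*, were counted at every level. The genes had also been chosen with earlier results of these data known, so the shares describe them and are no test. With a stricter filter on the signal, which kept 21 of the 41, there were 0 to 2 at each level and direction, against 1.74% to 4.71% of all gene probes kept by it, and the count was 0 in 4 of the 8 cases. *Rfc2* and *Dscc1*, the latter kept only through its CR signals, were among those higher at all levels. *Mcm3*, *Mcm5*, *Tk1*, *Rfc1*, *Cdkn1b* and *Cdkn1a* made up the 6 lower at 20% CR, and *Cdkn1a*, *Cdc25a*, *Rfc1*, *Ccnb2* and *Mcm3ap* the 5 lower at 30% CR.

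The median ratio of the 41 was 0.15, 0.07, −0.02 and 0.01, and that of all kept gene probes 0.00, 0.01, −0.03 and 0.00. Over all 53, the weak ones included, it was 0.15, 0.11, −0.02 and 0.01. As a whole, 21 of 41 had a mean ratio above 0 (51.2%), against 49.1% of all gene probes. This count pools inhibitors of division with genes that drive it, so opposite shifts could cancel in it. Above and below 0 were 0 and 4 for the CDK inhibitors, 4 and 2 for the MCM helicase and 5 and 2 for the clamp and its loaders. Mitosis had 8 and 4, G1 and S phase entry 3 and 4, nucleotide supply 1 and 2, and the genes taken by first letters only 0 and 2. In size the ratios of the 41 were larger. The median absolute mean ratio was 0.23 for the 41 and 0.14 for all, at a similar median log2 signal (7.25 and 7.20). This difference was not tested, and the genes had been chosen with earlier results of these data known.

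**Figure D3:**
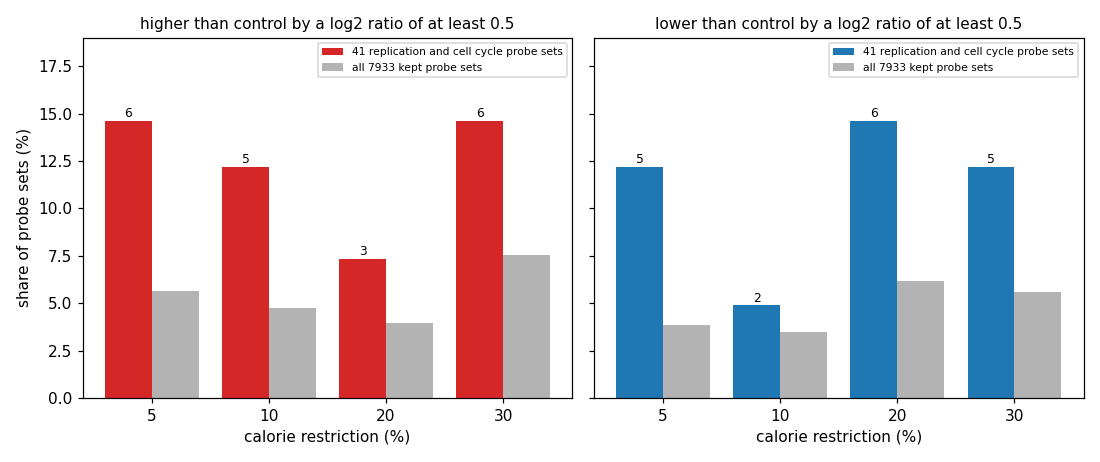
Share of gene probes (%) that were higher (left) or lower (right) than the control array past a log2 ratio of 0.5 at each CR level, for the 41 kept replication and cell cycle gene probes (coloured, with their number) and all 7933 kept gene probes (grey). The coloured bars rest on 2 to 6 gene probes and 1 array each, and stand above the grey ones in all 8 pairs.

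Since every ratio rests on the same control array, each array was also set against the other 4. The control array held the lowest of the 5 signals for 13 of the 41 gene probes (31.7%, against 19% of all) and the highest for 9 (20.6% of all). Among the 13 were *Dscc1* and *Mcm4*, which passed the filter only through their CR signals. The 5% CR array was lowest for 7 (14.3% of all) and highest for 3 (14.8% of all). The 10% CR array was lowest for 2 (16.5% of all) and highest for 15, or 36.6%, against 20.5% of all. These 15 included *Mcm2*, *Mcm3*, *Mcm4*, *Mcm7*, *Rfc3*, *Rrm1*, *Cdk4*, *Ccnd2* and both *Tk1* gene probes. At 20% CR the array was lowest for 12 (28.7% of all) and highest for 4 (21.2% of all), and at 30% CR lowest for 7 (21.1% of all) and highest for 10 (22.6% of all). Taken from the mean of the 5 arrays in place of the control, the median of the 41 was −0.03 on the control array and 0.05, 0.08, −0.08 and −0.02 under CR. The difference between the 41 and all gene probes was not tested for any array. The 10% CR array also had the highest median signal (49), and with the arrays centred on their medians the median ratio of the 41 at 10% CR was 0.01 in place of 0.07. On the 20% CR array the share that was lowest (29.3%) was near that of all gene probes.

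Signals of markers of other cell types differed between the same arrays. In bulk tissue, the number of cells and the transcript per cell cannot be told apart. Markers of villus enterocytes (12 of 16 listed genes on the array) had summed signals of 16788, 18260, 18163, 24193 and 17434 from the control to 30% CR, and so were highest at 20% CR, where *Mcm2*, *Mcm3*, *Mcm5* and *Cdk4* were lowest but *Mki67*, *Mcm6*, *Plk1* and 1 *Cdc20* gene probe were highest. General epithelial markers (9 of 10) summed to 21082 to 22546 on 4 arrays and 26700 at 20% CR. Lymphocyte markers (15 of 24) summed to 6041 to 7348, the highest at 10% CR, with a median ratio of 0.35, 0.59, 0.22 and 0.37. The sum is mostly *Cd74*, with 4205 of 6173 on the control array and a mean ratio of −0.01. By mean ratio, 10 of the 11 kept lymphocyte gene probes, for 9 genes, were above 0 and 1 below, against 49.1% of all gene probes above 0. Several of the 10 are for the single gene *Cxcr4*, with mean ratios of 0.66, 0.65 and 0.67. The difference from all gene probes was not tested. Genes listed for Paneth cells (8 of 11) summed to 4134 to 4598 on 4 arrays and 7382 at 10% CR. On the control and 10% CR arrays *Lyz2* had 2243 and 3490, *Reg3b* 1086 and 2064, and *Reg3g* 253 and 717. *Pla2g2a* had 428.5 and 818.5, and *RatNP-3b* 194 and 251. Whether these genes mark Paneth cells alone in this tissue was not tested. Macrophage markers (10 of 12) summed to 2593 to 2689 on 4 arrays and 3197 at 10% CR. Stem and crypt markers (5 of 10) summed to 625 to 737, goblet cell markers (5 of 9) to 12601 to 16195, smooth muscle markers (12 of 12) to 13582 to 18570, and exocrine pancreas markers (9 of 11) to 858.5 on the control array and 265 to 374 under CR. Of the pancreas markers only *Cela1* passed the filter, with 214.5 on the control array and 149.5, 245.8, 207 and 184.5 under CR, so the higher control sum rests on gene probes below the filter. No marker on the array was at 0 on any array. Crypts and lymphoid tissue both hold dividing cells; the part of these shifts, and of the higher actin ratio at 20% CR, in the values above was not tested.

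Linear models over the 5 arrays gave no call. In the comparison of the 4 CR pools with the control pool (limma, which assumes that the single control pool varies like the CR pools), 0 of 41 and 0% of all gene probes passed an adjusted p of 0.05, and 6 of the 41 had an unadjusted p under 0.05, against 4.76% of all. These 6 were *Dscc1*, *Rfc2* and *Mcm7*, higher under CR, and *Cdkn2b* and both gene probes of *Cdkn1a*, lower. *Dscc1* passed the filter through its CR signals, and the members had been chosen with earlier results of these data known. In the trend over the restriction percent, 0 of 41 and 0% of all passed (limma, lowest adjusted p = 0.998 among the 41). Unadjusted, 2 were under 0.05, against 3.09% of all. They were *Dscc1*, whose log2 signal differed by 0.30 ± 0.12 (standard error) per 10% of restriction, and *Aurkb*, with 0.25 ± 0.11. The third highest slope was that of *Rfc4* (0.16 ± 0.08), and the lowest were those of *Cdc25a* (−0.22 ± 0.12), *Mcm3* (−0.16 ± 0.10) and the weaker *Cdkn1a* gene probe (−0.15 ± 0.12). Without the control pool the slope of *Dscc1* was 0.13, and without the 5% CR pool 3 in place of 6 members had an unadjusted p under 0.05 in the comparison with the control.

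**Figure D4:**
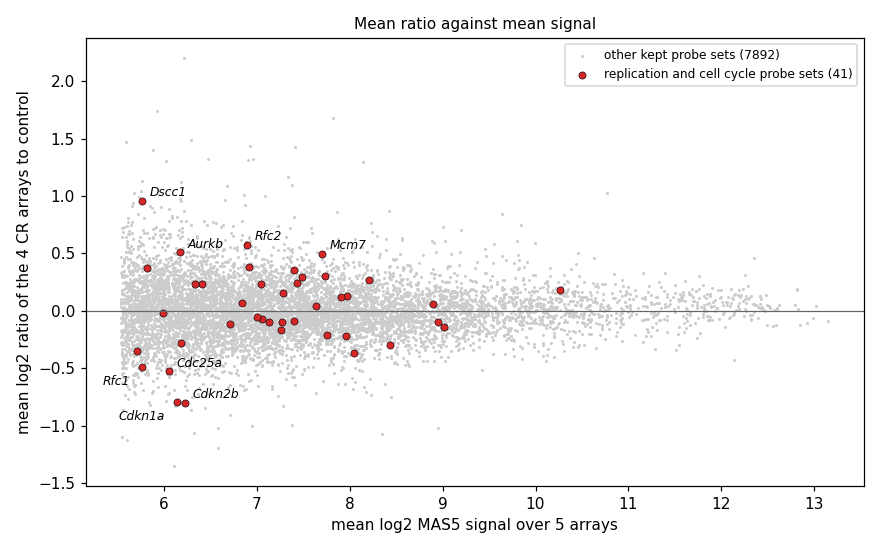
Mean log2 ratio of the 4 CR arrays to the control array (y axis) against the mean log2 signal over the 5 arrays (x axis) for the 41 replication and cell cycle gene probes (red) and all other kept gene probes (grey). Names are given where the mean ratio is large; *Dscc1* (0.96) and *Cdkn2b* (−0.80) mark the ends, at signals where other gene probes scatter widely too.

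For 10 of the 38 genes the array holds several gene probes, and for 7 of them at least 2 were kept. The mean ratios of kept gene probes of 1 gene differed by 0.07 (*Tk1*) to 0.46 (*Rfc1*), and in 3 genes, *Ccnb1*, *Ccnd1* and *Top2a*, their signs differed. Only for *Cdkn1a* did all kept gene probes lie on the same side of the control by more than 0.3 at every level. The median absolute mean ratio of the 41, 0.23, lies within that range of gaps.

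**Figure D5:**
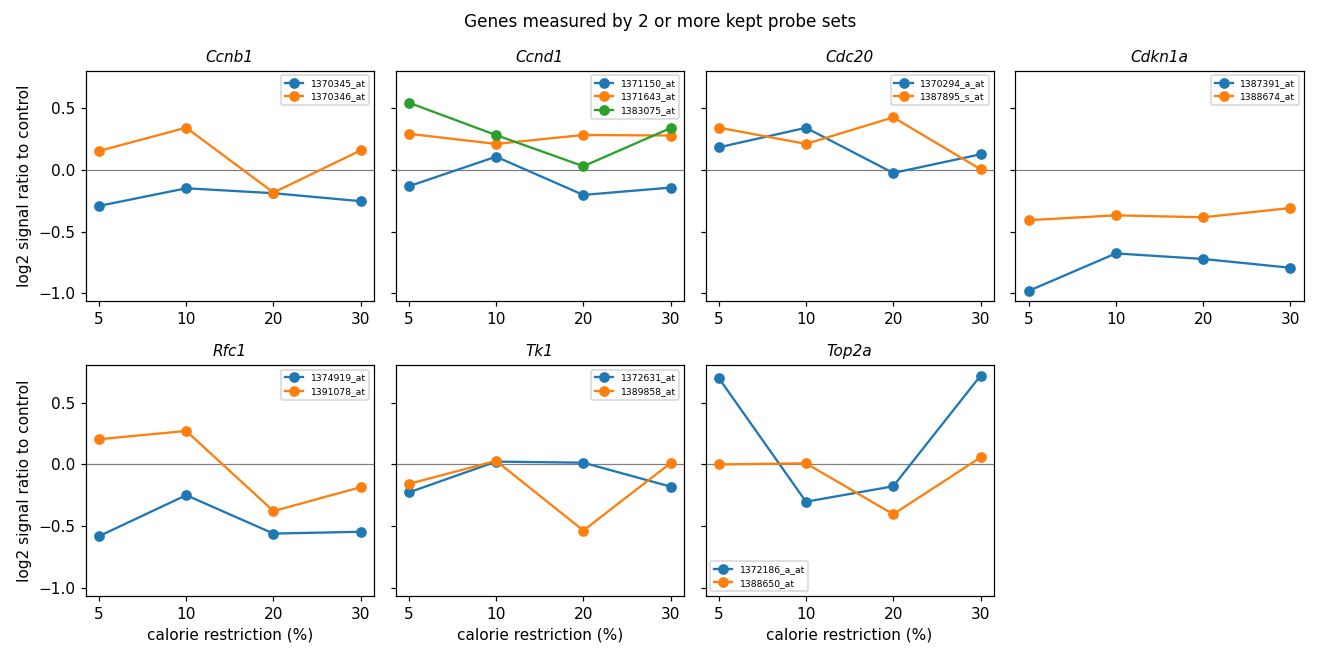
Log2 signal ratio to the control array at 5, 10, 20 and 30% CR for the 7 genes measured by 2 or 3 kept gene probes, 1 line per gene probe and 1 array per point. The lines of *Cdkn1a* both stay below −0.3, while those of *Ccnb1*, *Ccnd1* and *Top2a* lie on both sides of 0.

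Beyond these members, 134 further genes of replication, checkpoints and mitosis had been listed from general knowledge, and 64 gene probes for 62 of them were kept. None passed limma in either direction at an adjusted p of 0.05 (0 up and 0 down), 44 had a mean ratio above 0 and 20 below (49.1% of all gene probes were above 0), and 6 had an unadjusted p under 0.05 (4.76% of all). *Rb1*, the retinoblastoma gatekeeper of S phase, had 43.1 on the control array and 79.6, 63.4, 72.7 and 81.4 under CR. *Spc25*, of the kinetochore, had 194.7 against 274.3, 327.5, 251.7 and 272.7, and the checkpoint kinase gene *Chek1* 34.6 against 56.7, 45.6, 61.2 and 59.5. The control signals of *Rb1*, *Chek1* and *Mybl2* (39.3) lay below the filter value. They passed through their signals under CR, which favours a mean ratio above 0, and they are among the 44. All CR pools were higher for *Rb1*, *Spc25* and *Chek1*, and for *Racgap1*, which acts in cytokinesis (mean ratio 0.41). Lower on all CR arrays were *Myc*, a growth-promoting transcription factor, with 107.9 against 54.3, 86.1, 75.1 and 62.4, and *Cad*, the enzyme of the first steps of pyrimidine synthesis, with 98.3 against 47.6, 74.1, 66.8 and 53.5.

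By list, polymerase and fork genes had 12 mean ratios above 0 and 4 below (median 0.17), with *Rpa3*, of the single-strand binding complex, at 1.12, 0.09, 0.08 and 0.85. *Top1*, a topoisomerase, had −0.44, −0.04, −0.42 and −0.45 at one gene probe and 0.34, 0.03, −0.25 and 0.37 at the other. Genes of S phase control had 8 above and 2 below (median 0.20). Among the 8, *Rb1* and *Mybl2* passed the filter through their signals under CR, as did *Chek1* among the checkpoint genes. Mitosis genes had 12 and 5 (median 0.06), *Aurka* being lower with a mean of −0.32. Helicase loading had 3 and 3 (median 0.07), nucleotide supply 4 and 2 (0.03), and checkpoint genes 4 and 2 (0.10). The other genes named as kinase inhibitors had 1 above and 2 below (−0.17). That list was the only one of these with a negative median, but it rests on 3 kept gene probes and is the value of *Cdkn3*. The mean ratio was −0.48 for *Cdkn1c* and 0.08 for *Cdkn2c*, so the list showed no common direction. Among the members, the genes of G1 and S phase entry and of nucleotide supply also had a negative median of the mean ratio (−0.09 each). The differences between lists were not tested.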

How the data were processed

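Complementary RNA from 5 pools of rat small intestine, 1 per restriction level from a group of 5 rats, was measured on 1 array per pool. The authors deposited MAS5 signals (intensity, linear scale), scaled so that the mean without the lowest and highest 2% is equal on all arrays; because MAS5 takes off an estimate of stray signal from mismatch probes, ratios between weak signals are unstable, and scaling hides any difference in total RNA. The number of arrays limits the precision.

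Signals were floored at 0.1 and taken to log2. Names came from the array annotation: 12783 gene probes carry 1 symbol, 312 several and 2771 none. All 38 member genes matched the RefSeq gene table by number, and 0 symbols differed. Gene probes were kept if their mean log2 signal reached the array-wide median. The R package limma, version 3.58.1 under R 4.3.3 (functions lmFit and eBayes, with trend; two-sided p-values, Benjamini-Hochberg adjustment over all 7933 kept gene probes, threshold 0.05) tested the 4 CR pools against the control and a linear trend over restriction percent, with 3 residual degrees of freedom, and was checked on simulated data. Sizes were counted at a log2 ratio of 0.5.

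Values on every array are given for members named by a rule that lists the main replication and cell cycle genes and adds the 3 highest and 3 lowest mean ratios and slopes; other pathway genes were named by the largest mean ratio in their list, up to 4. The members and lists were chosen with earlier results of these data known. Groups came from the sample labels. The alternatives tried were median centring, quantile normalization, a constant of 13 added to every signal, a stricter filter (quantile 0.75) or none, 1 gene probe per gene, a size of 1, the mean of the 5 arrays as reference, no intensity trend, the rank of the level, and each pool left out in turn. The control pool was left out in the trend only. Sequences are from RefSeq, build GRCr8.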

Additional observations from a re-analysis of the deposited data

How the results depend on the processing

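No paired analysis was possible because each diet had its own rats and a single array. Among the recomputed counts and medians 100 stayed close to the main value (counts within 1.5 times) and 52 did not, and all 85 recomputed values of single gene probes kept their sign and side of the threshold. No member passed an adjusted p of 0.05 in limma under any alternative that was run, the smallest being 0.401 in the comparison with the control and 0.378 in the trend; the signs of *Dscc1*, *Rfc2*, *Mcm7*, *Cdkn1a*, *Cdkn2b* and *Aurkb* held in all of them. For all of these genes but *Aurkb* the ratios had the same sign on every CR array, so leaving out a CR pool could not change the sign in the comparison. The control pool, on which every ratio rests, could not be left out of that comparison. Counts by size, given as higher and lower, depended on weak signals and on the scaling; the cause was not tested.
At 5% CR (6 and 5), 3 were lower with the added constant and with 1 gene probe per gene, 10 higher without the filter, 2 and 0 with the stricter filter, 0 and 1 at a size of 1, and 1 and 1 against the mean of the 5 arrays, where the median of the members was 0.048. At 10% CR (5 and 2), 3 were higher with median centring and with the added constant, 9 and 4 were counted without the filter, 1 and 0 with the stricter filter, 1 lower with 1 gene probe per gene, 0 and 1 at a size of 1, and 0 and 0 against the mean of the 5 arrays. At 20% CR (3 and 6), 4 were higher and 3 lower with quantile normalization and with median centring, 1 and 3 were counted with the added constant, 6 higher without the filter, 0 and 2 with the stricter filter, 3 lower with 1 gene probe per gene, 0 and 1 at a size of 1, and 0 and 1 against the mean of the 5 arrays. At 30% CR (6 and 5), 3 were lower with the added constant and with 1 gene probe per gene, 9 lower without the filter, 0 and 1 with the stricter filter, 1 and 1 at a size of 1, and 2 and 1 against the mean of the 5 arrays.
With the stricter filter the control was lowest for 7 and highest for 4 of 21 gene probes, and 2 members had an unadjusted p under 0.05 in the comparison with the control and 0 in the trend. Leaving out 1 pool gave 3 to 8 such members in the comparison (3 without the 5% CR pool) and 1 to 6 in the trend (1 without the control, 10% or 30% CR pool, 6 without the 5% CR pool), and the rank of the level gave 1.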
